A study of Homo sapiens with 12 samples.

Results

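YY1 was knocked down in T24 cells and compared with the control siRNA. T24 is an established cell line from a human transitional cell carcinoma of the bladder. The comparison takes 6 of the 12 RNA-seq libraries of the series, namely 3 of cells given siYY1 and 3 of cells given the non-targeting siNC, each group deposited as biological replicates 1 to 3. The remaining 6 libraries come from the same cell line after siFDPS (3 libraries) or siSQLE (3 libraries), siRNAs against 2 enzymes of cholesterol synthesis, and serve below as knockdowns of other genes. All 4 groups carry an siRNA, so none is an untreated culture. The sequence and dose of siYY1 and the time from transfection to harvest are not given in the sources used here, and each gene was targeted in 1 line only.

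YY1 is a ubiquitous zinc finger transcription factor that can activate or repress transcription depending on its partners and on the promoter. It binds a short element containing the letters ATGG or its complement CCAT, often just downstream of the transcription start of housekeeping genes. It is known for its contacts with the INO80 chromatin remodeller and with Polycomb proteins, for its part in enhancer to promoter looping, and for the expression of ribosomal protein and mitochondrial genes. Its close relatives are YY2, a retrogene derived from YY1, and ZFP42 (REX1), a factor of pluripotent cells.

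The deposited counts were summed per gene and are given below as CPM, the counts per 1e+06 counts, scaled by the trimmed mean of M values (TMM). Totals ranged from 60656106 to 62168745 counts in the siYY1 libraries and from 48679901 to 60728086 in the siNC libraries. Genes of the mitochondrial chromosome held 3.74% ± 0.1002 of counts under siYY1 and 4.86% ± 0.036 under siNC (SD, n = 3 each, exact two-sided permutation p = 0.1, the smallest that 3 against 3 can give). The 100 genes with most counts held 17.2% ± 0.105 and 20.2% ± 0.646 (p = 0.1 by the same exact test). The labelled cell type is epithelial, and 4 simple-epithelium keratins (KRT7, KRT8, KRT18 and KRT19) had a summed level of 1534 to 1574 CPM under siNC and 1614 to 1814 under siYY1. Urothelial markers were present in part. Of 10 basal markers 5 had enough counts to be tested, and the 10 summed to 1751 to 2115 CPM under siNC. Of 12 luminal markers 6 had enough counts, and the 12 summed to 156.8 to 163 CPM under siNC. Other members, the basal KRT5, KRT14 and KRT6A and the uroplakins UPK3A and UPK1B, were at 0 counts in the siNC libraries. Markers of other cell types were scarce. Of 9 leukocyte markers 3 had enough counts to be tested, of 5 endothelial markers 2, and of 8 fibroblast and muscle markers 2, and their summed levels were at most 10.1, 1.74 and 9.24 CPM in any of the 6 libraries. 2 leukocyte markers and 2 endothelial markers fell, all from siNC levels under 3 CPM, and the part of other cell types in the results was not tested.

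YY1 itself was the first check of the labels. The gene lies on the plus strand of chromosome 14 (GRCh38, 100238298 to 100282792). Its level was 145, 142 and 140 CPM in siNC replicates 1 to 3 and 24, 24.9 and 23.7 CPM in the siYY1 libraries. The groups were far apart and neither was spread, with means of 142 ± 2.47 and 24.2 ± 0.623 CPM (SD, n = 3). The log2 fold change was -2.59 ± 0.05 (SE) with an adjusted p of 3.8e-06. Here and below, adjusted p-values come from edgeR's quasi-likelihood test (Benjamini-Hochberg adjustment across every tested gene), and a gene "rose" or "fell" where that value was under 0.05. The siFDPS and siSQLE libraries averaged 202 and 150 CPM, so the lowest YY1 levels of the series were in the 3 siYY1 libraries. The transcript with most counts, ENST00000262238, held 7138, 8637 and 7108 counts under siNC and 1251, 1244 and 1201 under siYY1, 6.69-fold lower after scaling. A second transcript of the locus, ENST00000623799, which the annotation does not class as protein-coding, held 115 to 151 counts under siNC and 171 to 194 under siYY1.

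**Figure D1:**
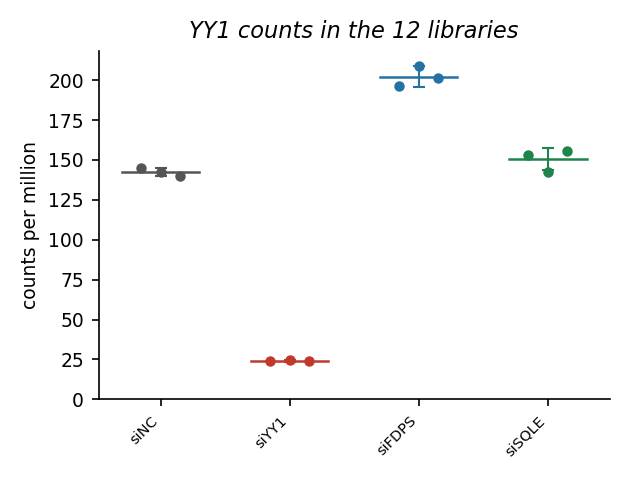
YY1 level in CPM (vertical axis) in the libraries of each group (horizontal axis), with 1 point per library and the mean ± SD of 3 libraries as lines. The siYY1 libraries sit between 23.7 and 24.9 CPM, and the siNC libraries between 140 and 145 CPM.

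YY2, whose exons overlap those of another gene on the same strand, had 6.90, 6.85 and 6.56 CPM under siNC and 8.13, 8.66 and 8.78 under siYY1. Its log2 fold change of 0.30 ± 0.09 passed the test (adjusted p = 0.034), but the call was lost when any 1 of the 6 libraries was left out. Against the other knockdowns it was -0.12 with an adjusted p of 0.34. ZFP42 had too few counts to be tested, with at most 0.0854 CPM in any siNC or siYY1 library.

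The change across the transcriptome was broad. Of 19082 genes tested, 10010 were called (52.5%), of which 4938 rose (25.9% of the genes tested) and 5072 fell (26.6%). These 2 shares are the background for the list counts against siNC below. The 3 siYY1 libraries did not overlap the 3 siNC libraries for 11899 genes (62.4%). A change of 2-fold or more was seen in 3861 called genes, 1384 that rose and 2477 that fell. The split depends on the scaling, since upper-quartile factors moved the median log2 fold change by -0.14 and gave 3911 genes that rose and 6180 that fell. The direction also varied with the level. In the fifth of genes with fewest counts 5.79% rose and 19.8% fell, and in the fifth with most counts 44.5% rose and 23.7% fell. Among protein-coding genes 31.4% rose and 29.1% fell, whereas among 999 long intergenic RNAs 12.3% rose and 26.0% fell, and among 1375 antisense genes 10.7% and 20.9%.

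**Figure D2:**
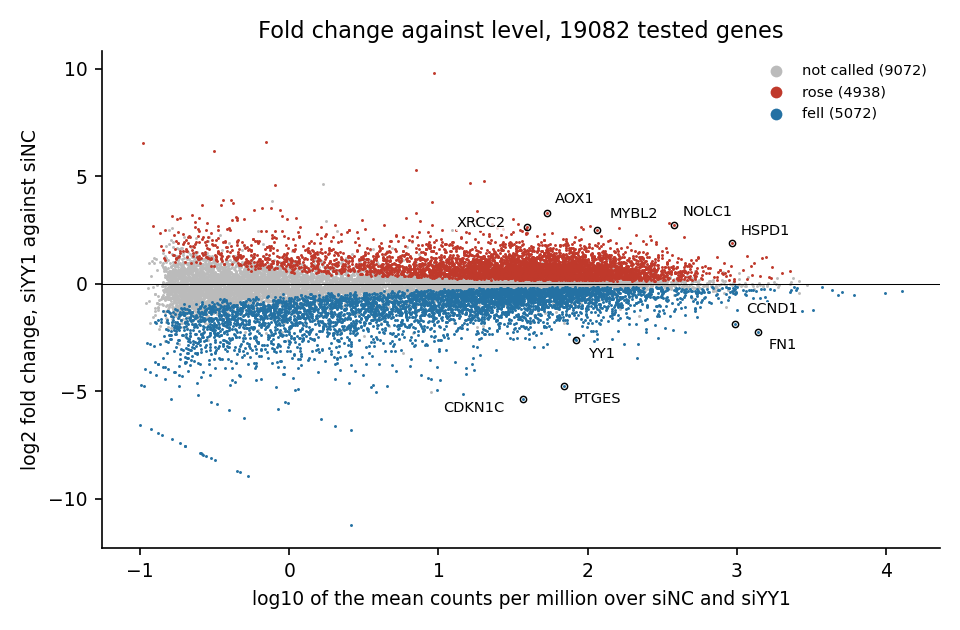
Log2 fold change of siYY1 against siNC (vertical axis) against the log10 of the mean CPM of both groups (horizontal axis), with 1 point per tested gene coloured by its call. The 4938 genes that rose crowd at high levels, and the 5072 that fell spread to larger changes at low levels. YY1 and 9 genes described in the text are circled.

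The same 3 siYY1 libraries were also compared with the 6 libraries of the siFDPS and siSQLE groups, without siNC. In that fit 10068 of 19775 genes were called (50.9%), with 5332 rising (27.0%) and 4736 falling (23.9%). Upper-quartile scaling gave 4385 and 5856. Both comparisons share the siYY1 libraries and are not independent, so values are set side by side below without a measure of likeness. In both, fewer copies per cell and fewer cells with a given transcript cannot be told apart.

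RefSeq promoter windows (GRCh38.p14), each from 250 bases before to 50 bases after a transcription start, were found for 12092 of the tested genes, including 11083 of 13845 protein-coding ones. They were searched on both strands for a YY1 element written as AANATGGCG, where N is any base. Of the protein-coding genes 847 (7.64%) held it in at least 1 window, against 3.84% of all 27305 genes with a promoter window. The larger set also holds genes that were not tested or are not protein-coding, so the 2 shares are not like for like. The element lay mostly in 1 place, since 548 of 933 matches began in the 50 bases after the start and 654 read in the direction of the gene. Matches were counted in every window of a gene, so a site in overlapping windows can be counted more than once. The element contains ATG, and its overlap with start codons was not tested. Among protein-coding genes with the element 36.3% rose and 26.7% fell, with a median log2 fold change of 0.09, and among those without it 32.4% rose and 28.4% fell, with a median of 0.03. The element was found on both sides of the response and at similar shares, in 8.47% of the genes that rose, 7.21% of those that fell and 7.26% of those not called. Within the 50 bases after the start alone, the shares were 5.57%, 4.56% and 4.37%. Of the genes with it there 37.8% rose and 26.8% fell, against 32.4% and 28.4% of the others. The levels of genes with and without the element were not compared. With the shorter element CCATNTT the shares of rising and falling genes were 32.6% and 29% with it and 32.7% and 28.1% without it. From the genes with the element, 3 falling and 3 rising genes with small p-values were picked. Not every gene with the element was open to this choice. Where a gene had several windows, the match shown need not be the one nearest to a start. The stretches of 30 bases around the matches are shown so that elements of genes that moved in opposite directions can be compared. Each is written 5′ to 3′ on the strand of the gene, with the element in capitals.

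PCIF1 (fell): gcccgggacacAAGATGGCGgcagcggcgc
KAT5 (fell): tggagggagggAAGATGGCGgaggtggtga
SGCB (fell): gcggcggcgggcgcgggAAGATGGCGgcag
NUDCD3 (rose): cgcccgcttcaAACATGGCGgtcaagccct
UTP20 (rose): tccttgtctccAACATGGCGgcgcccaggg
RCC1L (rose): aagggtcacgcAAGATGGCGgcgcccagag

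These stretches are at chr20:45934694-45934723 (plus strand) for PCIF1, chr11:65712254-65712283 (plus) for KAT5, chr4:52038250-52038279 (minus) for SGCB, chr7:44490876-44490905 (minus) for NUDCD3, chr12:101280116-101280145 (plus) for UTP20 and chr7:75073761-75073790 (minus) for RCC1L. In 5 of the 6 the element began 13 to 37 bases after the start, and in NUDCD3 it began 236 bases before it. The log2 fold change was -1.64 for PCIF1, which methylates the messenger RNA cap, -1.47 for the histone acetyltransferase KAT5 and -1.57 for SGCB, a sarcoglycan of the plasma membrane. It was 2.02 for the co-chaperone NUDCD3, 1.47 for the ribosome assembly factor UTP20 and 1.63 for RCC1L, a protein of mitochondrial ribosome assembly. Among the lists with over 10 such genes, the element was most frequent in the nuclear genes of the respiratory chain (17 of 63 with a window) and in mitochondrial ribosomal proteins (18 of 69). Of these, 7 and 9 rose and 3 and 2 fell.

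Genes of DNA replication rose together. Of 50 members tested, 46 rose and none fell, at a background of 25.9% rising, with a median log2 fold change of 1.26. Upper-quartile scaling, a minimum of 50 counts on average, or leaving out siNC replicate 2 gave 1 that fell. Against the other knockdowns 47 rose and none fell, with a median of 1.25. GINS2, a subunit of the replicative helicase, had 11.1, 10.5 and 11.2 CPM under siNC and 66.3, 65.9 and 65.4 under siYY1 (log2 fold change 2.56 ± 0.06, adjusted p = 3.8e-06). Its level was 4.90 CPM under siFDPS and 16.7 under siSQLE, both far below the siYY1 libraries. MCM7, a ring subunit of the same helicase, rose from 158 ± 4.10 to 508 ± 12.7 CPM, a log2 fold change of 1.65. WDHD1, which links the helicase to DNA polymerase alpha, rose from 26.7 ± 0.478 to 116 ± 6.83 CPM, or by 2.08 on the log2 scale. The range of the list ran from -0.17 to 2.56, and 4 members were not called. They included RRM2 and CDC7 (chosen after their values were seen), at 0.08 and 0.22.

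Mitotic genes moved the same way. Of 50 tested, 42 rose and none fell (median 0.92), and 49 rose against the other knockdowns (median 0.96). Without siNC replicate 2, and with upper-quartile scaling, 1 fell. MYBL2, a transcription factor of the cell cycle, had 35.3, 34.9 and 33.4 CPM under siNC and 196, 199 and 200 CPM under siYY1, a log2 fold change of 2.48 ± 0.05 (adjusted p = 3.8e-06). The siFDPS and siSQLE means of 65.5 and 76.9 CPM lay between those of siNC and siYY1. CENPF, a kinetochore protein, rose from 101 ± 4.85 to 428 ± 6.99 CPM and the phosphatase CDC25A from 23.6 ± 0.477 to 85.5 ± 0.946 CPM. The change was not uniform within the list, in which the lowest member was at -0.08. MKI67 and PLK1, widely used proliferation markers named here after their values were seen, had log2 fold changes of 0.57 and 0.38 and were not called. Whether more cells were cycling cannot be read from these libraries.

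Regulators of the cycle changed in both directions, with cyclins among the genes that rose and among those that fell. Of 24 cyclins, cyclin-dependent kinases, their inhibitors and E2F or RB family members tested, 14 rose and 6 fell. CCNE1, the E-type cyclin of S-phase entry, rose from 4.80 ± 0.821 to 25.8 ± 1.54 CPM. E2F1, an activator of S-phase genes, rose from 12.8 ± 1.06 to 64.7 ± 0.709 CPM (log2 fold change 2.30), the pocket protein RBL1 from 26.7 ± 0.731 to 94.9 ± 1.67 CPM and the G1 kinase CDK6 from 97.9 ± 2.34 to 221 ± 0.981 CPM. Among those that fell, CDKN1C, an imprinted inhibitor of cyclin-dependent kinases, showed the largest drop of the genes named by size. It had 79.8, 70.6 and 64.6 CPM under siNC and 1.98, 1.50 and 1.87 under siYY1, a log2 fold change of -5.36 ± 0.14. It was also low in the other knockdowns, at 15.2 CPM under siFDPS and 9.04 under siSQLE. CCND1, the D-type cyclin of G1, had 1464, 1600 and 1514 CPM under siNC and 431, 424 and 435 under siYY1 (log2 fold change -1.86). It was at 666 CPM under siFDPS and lower still, at 379 CPM, under siSQLE. CCNA1, the germline A-type cyclin, fell from 31.1 ± 1.34 to 2.90 ± 0.0435 CPM.

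Genes of DNA repair mostly rose. Of 45 tested protein-coding members of the KEGG pathway homologous recombination 28 rose and 4 fell, of 45 in nucleotide excision repair 30 and 5, and of 58 in the Fanconi anemia pathway 33 and 6. In the last, 10 fell with upper-quartile scaling, and in excision repair 3 fell when all 12 libraries shared the fit. These lists share members with each other and with the replication list. XRCC2, a protein of homologous recombination, had 10.4, 10.6 and 11.3 CPM under siNC and 67.5, 66.3 and 70.3 under siYY1 (log2 fold change 2.63 ± 0.07, adjusted p = 3.8e-06). RAD54L, a motor protein of strand exchange, rose from 10.8 ± 0.363 to 61.5 ± 4.96 CPM and the helicase BLM from 12.47 ± 1.22 to 64.7 ± 1.91 CPM. In both other knockdowns these 3 genes stayed between 13.8 and 21.5 CPM on average. DDB2, the damage sensor of excision repair, went the other way, from 11.1 ± 1.00 to 4.73 ± 0.365 CPM.

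Among ribosome biogenesis factors, which make and assemble ribosomal RNA in the nucleolus, 38 of 46 tested rose and 3 fell (median log2 fold change 0.65). In the fit with siFDPS and siSQLE 39 rose and 2 fell. NOLC1, a nucleolar phosphoprotein, had 96.4, 72.9 and 121 CPM under siNC and 662, 661 and 665 under siYY1, a log2 fold change of 2.74 ± 0.17 (adjusted p = 3.5e-05). DKC1, the pseudouridine synthase, whose exons overlap another gene on the same strand, rose from 115 ± 3.79 to 328 ± 9.77 CPM, and POLR1E, a subunit of RNA polymerase I, from 63.2 ± 0.970 to 159 ± 0.984 CPM. RRN3, an initiation factor of the same polymerase, fell from 94.0 ± 5.80 to 60.4 ± 1.40 CPM. The cytosolic ribosomal proteins themselves did not follow, since of 79 tested 8 rose and 25 fell (median -0.12). Against the other knockdowns 19 rose and 4 fell (median 0.08). Upper-quartile scaling gave 3 rising and 45 falling against siNC, and 9 rising and 14 falling against the other knockdowns. With 1 library left out, 4 to 13 rose and 16 to 27 fell against siNC, the lowest without siYY1 replicate 2 (rising) and without siYY1 replicate 1 or 3 (falling), and the highest rising count without siNC replicate 3. Against the other knockdowns 12 rose without siYY1 replicate 1 or 2 and 32 without siSQLE replicate 2, and 2 fell without siFDPS replicate 1 or siYY1 replicate 3. No direction is read for these genes. RPS26 stood out among them, with 82.2 ± 8.29 CPM under siNC and 184 ± 1.74 under siYY1.

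Chaperones rose in 22 of 28 tested members and fell in 3. The mitochondrial pair that encloses folding proteins was among them. HSPD1 had 423, 314 and 432 CPM under siNC and 1478, 1461 and 1459 under siYY1 (log2 fold change 1.88 ± 0.12), and its partner HSPE1, which shares exons with a neighbouring gene on both strands, rose from 71.7 ± 6.04 to 172 ± 2.26 CPM. The cytosolic HSP90AA1 rose from 886 ± 102 to 2078 ± 297 CPM, with siFDPS and siSQLE at 1977 and 1852 CPM, and did not differ from them by the test (log2 fold change 0.10, adjusted p = 0.39). Aminoacyl-tRNA synthetases, which charge transfer RNAs, rose in 13 of 20 and fell in 1, with KARS at 132 ± 0.969 and 327 ± 15.8 CPM. Proteasome subunits rose in 21 of 37 and fell in 2, and splicing factors rose in 37 of 72 and fell in 9. Rising shares were 56.8% and 51.4%, against 25.9% of all tested genes, 31.4% of protein-coding genes and 44.5% of the fifth with most counts. With upper-quartile scaling 14 proteasome subunits rose and 4 fell, and 30 splicing factors rose and 15 fell. Without siNC replicate 1, siYY1 replicate 2 or siYY1 replicate 3, 1 proteasome subunit fell. Of 30 genes of the ATF4 amino-acid response 17 rose and 7 fell, with the serine synthesis enzyme PHGDH at 1.25, asparagine synthetase (ASNS, with an overlapping gene on the same strand) at 0.96 and the stress inhibitor DDIT4 at -1.90 on the log2 scale. SLC7A11, the cystine transporter, rose from 320 ± 16.6 to 784 ± 12.2 CPM.

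Nuclear genes for mitochondrial proteins changed in both directions. Of 78 mitochondrial ribosomal proteins 32 rose and 13 fell. Of 77 nuclear genes of the respiratory chain 24 rose and 19 fell, close to the background. With upper-quartile scaling the counts of the 2 lists were 25 and 16, and 17 and 26. Of all tested genes 25.9% rose, and 44.5% did in the fifth with most counts, against 41.0% of the mitochondrial ribosomal proteins. ATP5IF1, the inhibitor of ATP synthase, fell from 54.6 ± 8.46 to 21.1 ± 1.06 CPM. Of the 13 protein-coding genes of the mitochondrial chromosome none rose and 9 fell, with a median of -0.17. Without siYY1 replicate 1, or without siYY1 replicate 2, 5 fell. The lower share of mitochondrial counts under siYY1, given above, moves with this list, and its part in the result was not tested. The ribosomal RNA MT-RNR2 had 4478, 4174 and 4922 CPM under siNC and 2016, 1937 and 2016 under siYY1, but the libraries were selected for messenger RNA. Of 16 factors of mitochondrial transcription and biogenesis 8 rose and 2 fell. Without siYY1 replicate 1, and with upper-quartile scaling, 5 rose, and 1 fell without siNC replicate 1 or 3 or siYY1 replicate 1 or 2. PPRC1, a coactivator of that program, rose from 120 ± 8.01 to 303 ± 11.4 CPM.

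Among lists with over 10 tested members, the genes of the interferon response had the highest share of falls. Of 31 interferon-stimulated genes tested 28 fell and 3 rose, at a background of 26.6% falling, and the median log2 fold change was -1.43. IFIT3, an antiviral protein, had 185, 186 and 186 CPM under siNC and 52.8, 51.7 and 55.1 under siYY1 (log2 fold change -1.84 ± 0.05, adjusted p = 3.9e-06). The siFDPS and siSQLE means were 97.99 and 149 CPM, above all 3 siYY1 libraries. DDX60, a helicase of viral RNA sensing, fell from 41.4 ± 1.23 to 15.7 ± 0.566 CPM and was at 15.9 CPM under siFDPS. IFIT2, whose exons overlap those of other genes, fell from 193 ± 17.2 to 39.3 ± 0.506 CPM and was lower still under siFDPS, at 23.1 CPM. USP18, BST2 and OAS3 rose, by 0.68, 0.28 and 0.31 on the log2 scale. The calls of BST2 and OAS3 were lost with upper-quartile scaling. That of OAS3 was also lost without siYY1 replicate 1 or 3, with a replicate block and with scaling by total counts alone. With siFDPS and siSQLE as the reference 20 members fell and 4 rose (median -0.57). All 12 libraries come from cells given an siRNA, so the level without one is not known here.

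Antigen presentation and inflammatory genes fell as well. Of 19 genes of MHC class I presentation 12 fell and 4 rose. The loading factor TAPBP fell from 199 ± 5.19 to 104 ± 4.33 CPM, whereas the chaperone CALR rose from 532 ± 18.4 to 778 ± 8.63 CPM. Of 31 inflammatory cytokines and NF-kB targets 20 fell and 6 rose (median -0.71), and 23 fell against the other knockdowns. IL6 had 51.5, 49.8 and 58.4 CPM under siNC and 26.0, 24.4 and 25.1 under siYY1. The chemokine CXCL5 fell from 29.4 ± 3.48 to 11.9 ± 0.705 CPM. IL1A was an exception, rising from 53.9 ± 5.11 to 221 ± 4.198 CPM, also above siFDPS and siSQLE at 93.2 and 134 CPM. PTGES, the inducible prostaglandin E synthase, had 120, 141 and 138 CPM under siNC and 4.72, 5.52 and 4.98 under siYY1 (log2 fold change -4.75 ± 0.10). It was at 99.5 and 28.8 CPM in the other knockdowns, so its level was lowest in the 3 siYY1 libraries.

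Clustered protocadherins, cell adhesion proteins encoded in 3 neighbouring arrays on chromosome 5, fell in 25 of 30 tested members and rose in none, with a median of -2.03. Up to 2 rose with DESeq2, with all 12 libraries in 1 fit or without siNC replicate 1. When compared with siFDPS and siSQLE 28 of 32 fell. Of 48 members 18 had too few counts for the test against siNC. PCDHGA10 fell from 42.2 ± 3.00 to 16.3 ± 1.45 CPM and PCDHB14 from 4.73 ± 0.296 to 0.976 ± 0.123 CPM. Both overlap other genes on the same strand, and gamma genes share their last exons, so reads can be divided among them and their values are not independent. With a minimum of 50 counts on average 16 members fell.

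Adhesion and matrix genes changed in both directions. Of 21 integrin subunits 10 fell and 4 rose. The rising count was 2 without siYY1 replicate 2 and with upper-quartile scaling, and 3 when any other single library was left out. ITGAV, the alpha v subunit, had 327, 305 and 351 CPM under siNC and 92.8, 91.0 and 94.7 under siYY1 (log2 fold change -1.86 ± 0.06). Its partner ITGB3, which shares exon sequence with an overlapping gene, fell from 75.7 ± 8.45 to 14.97 ± 1.04 CPM, and was as low in the other knockdowns, at 14.0 and 16.1 CPM. ITGB1, the most abundant beta subunit named here, changed little, from 1033 ± 21.6 to 909 ± 28.0 CPM. Of 37 collagen and laminin chains 13 rose and 13 fell, 35.1% each against 25.9% and 26.6% of all tested genes. The basement membrane collagen COL4A1 rose from 49.0 ± 3.42 to 174 ± 2.57 CPM. The anchoring fibril collagen COL7A1, which shares exon sequence with an overlapping gene, fell from 377 ± 29.3 to 123.1 ± 6.42 CPM. FN1, fibronectin, had 2056, 2738 and 2107 CPM under siNC and 489, 492 and 504 under siYY1 (log2 fold change -2.25 ± 0.12). The siFDPS mean of 2118 CPM was near siNC and the siSQLE mean of 817 CPM was between siNC and siYY1.

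Of the genes that mark epithelial or mesenchymal state, 11 of 24 fell and 7 rose, or 4 with upper-quartile scaling. N-cadherin (CDH2) fell from 215 ± 4.34 to 83.4 ± 3.02 CPM, and by 1.39 on the log2 scale against the other knockdowns. Vimentin (VIM) fell from 1844 ± 23.6 to 1248 ± 22.1 CPM and SNAI2 from 21.7 ± 3.12 to 12.1 ± 0.726 CPM, though the call of SNAI2 was lost when all 12 libraries shared the fit (adjusted p = 0.083 by edgeR). Other mesenchymal genes rose, with TAGLN, an actin-binding protein of smooth muscle, going from 5.14 ± 0.694 to 19.98 ± 1.10 CPM and smooth muscle actin (ACTA2) from 2.93 ± 0.229 to 5.29 ± 0.539 CPM. Neither differed from the other knockdowns by the test (adjusted p = 0.25 and 0.51). The epithelial genes did not rise as a group, since plakoglobin (JUP) fell from 96.5 ± 6.38 to 33.6 ± 1.68 CPM while desmoplakin (DSP) rose from 77.3 ± 2.08 to 145 ± 4.40 CPM. E-cadherin (CDH1) had at most 0.145 CPM in the 6 libraries and was not tested. RHOB had 104.5, 92.6 and 96.4 CPM under siNC and 32.6, 31.3 and 30.8 under siYY1, with 42.4 and 48.4 CPM in the other knockdowns. RAC1 rose from 171 ± 9.75 to 418 ± 9.12 CPM, but siFDPS and siSQLE were at 434 and 446 CPM and the siYY1 libraries did not differ from them by the test (adjusted p = 0.24).

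The mevalonate pathway, which the series perturbs with siFDPS and siSQLE, showed small changes under siYY1. Of 12 enzymes tested 5 rose and 2 fell (4 with upper-quartile scaling), with a median of 0.09. FDPS, the target of siFDPS, rose from 87.0 ± 3.38 to 136 ± 1.88 CPM (log2 fold change 0.60, adjusted p = 0.00013) and was at 163 CPM under siSQLE. MVK and PMVK, consecutive kinases of the pathway, had log2 fold changes of 1.00 and 0.91, and the isomerase IDI1 one of -0.53. SQLE rose from 116 ± 12.1 to 147 ± 6.16 CPM, a call that was lost without siYY1 replicate 1 or 2 and with upper-quartile scaling. Of 24 genes of sterol synthesis and uptake 8 rose and 6 fell, and with upper-quartile scaling 2 rose and 8 fell. PSME3, a proteasome activator, had 207, 89.7 and 227 CPM under siNC and 316.5, 337 and 326.5 under siYY1. Its log2 fold change of 0.87 did not pass the test (adjusted p = 0.054), and siNC replicate 2 lay far below the other 2 siNC libraries. It passed without siNC replicate 2, without siNC replicate 3, with DESeq2 and with a replicate block.

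Partners of YY1 did not move as a block. Of 41 Polycomb genes and known partners 14 rose and 10 fell. These shares, 34.15% and 24.39%, were near the 25.9% and 26.6% of all tested genes and the 31.4% and 29.1% of protein-coding ones. HCFC1, a chromatin adaptor, rose from 134 ± 10.7 to 366 ± 19.9 CPM, and the histone methyltransferase EZH2 from 33.9 ± 0.266 to 62.9 ± 0.425 CPM. OGT, the enzyme that adds N-acetylglucosamine to nuclear proteins, had 524, 560 and 509 CPM under siNC and 221, 232 and 222 under siYY1. Against the other knockdowns its log2 fold change was -1.16, close to the -1.27 against siNC. SUZ12 and PHC3, subunits of Polycomb complexes, fell by 0.87 and 1.15 on the log2 scale. Of 14 INO80 subunits 6 rose (42.9%) and 3 fell (21.4%), with the helicases RUVBL1 and RUVBL2 at 0.79 and 0.84. Of 454 numbered ZNF genes tested, mostly KRAB zinc finger repressors, 150 rose (33.0%) and 74 fell (16.3%). Against the other knockdowns 113 rose and 120 fell.

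The largest rises among well-counted protein-coding genes were led by ZNF492, a zinc finger gene that rose from 1.28 ± 0.395 to 12.8 ± 1.22 CPM, and AOX1, aldehyde oxidase, from 9.73 ± 1.22 to 96.2 ± 2.41 CPM. LYPD6, a modulator of nicotinic receptors and Wnt signalling, had 4.05, 3.69 and 3.97 CPM under siNC and 32.6, 31.0 and 31.4 under siYY1, and the EGFR ligand amphiregulin (AREG) had 2.35, 2.16 and 2.49 CPM and 15.02, 15.5 and 16.95 CPM. Both were highest in the siYY1 libraries, with other-knockdown means of 8.27 to 10.01 CPM for LYPD6 and 2.82 to 3.69 CPM for AREG. In contrast TPM4, a tropomyosin, had 97.1, 60.1 and 96.5 CPM under siNC and 628, 610 and 605 under siYY1, but 870 and 648 CPM in the other knockdowns. Against those its log2 fold change was -0.31. TOMM22 of the mitochondrial import pore and RAP1GAP2 likewise had siFDPS means of 131 and 59.0 CPM against siNC means of 26.9 and 8.37 CPM. For both genes siNC was therefore below siFDPS as well as siYY1. IL6R had 2.59, 3.71 and 14.2 CPM under siNC, where replicate 3 stood above the others, and 53.5, 53.5 and 60.7 under siYY1. EMC6 and NOLC1 completed the 10.

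The largest falls after CDKN1C were likewise taken among well-counted protein-coding genes. They were those of KCNK3, a background potassium channel (28.2 ± 2.66 to 0.824 ± 0.0351 CPM), ENTPD8, a nucleotide hydrolase, SNTB1, a syntrophin, and PTGES. ABCA12, which did not pass the filters for naming by size, had a log2 fold change of -6.63. FAM49A had 19.4, 20.0 and 19.7 CPM under siNC and 0.517, 1.06 and 1.12 under siYY1, with 29.8 and 9.59 CPM in the other knockdowns. THEMIS2, SESN3, a stress-induced sestrin, MAP2K6, a kinase of the p38 pathway, and PLEKHG4 had log2 fold changes of -4.41, -4.40, -4.20 and -4.04. For PLEKHG4 the siFDPS mean was lower than the siYY1 mean, at 0.0591 against 0.605 CPM. Of 37 tested ABC transporters of the KEGG list 25 fell and 5 rose against siNC, with ABCC3, an organic anion exporter, falling from 186 ± 23.01 to 41.2 ± 1.77 CPM and the cholesterol exporter ABCG1 from 3.73 ± 0.258 to 0.288 ± 0.0785 CPM. Against the other knockdowns 11 rose and 11 fell, and with upper-quartile scaling 6 rose and 14 fell. Of 25 p53 target genes 10 fell (40%) and 7 rose (28%), against 26.6% and 25.9% of all tested genes. CDKN1A, the p53-induced kinase inhibitor, fell from 84.2 ± 11.9 to 21.3 ± 0.836 CPM and was at 26.2 and 33.7 CPM in the other knockdowns. The remaining lists were split. Of 16 BCL2 family genes 7 rose and 7 fell, of 25 immediate early factors 6 and 6, and of 32 YAP/TAZ factors and targets 12 and 9. Without siNC replicate 1, 3 immediate early factors fell, and 4 fell without siNC replicate 3 or any 1 of the siYY1 libraries.

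Among genes with the most counts that changed at least 2-fold, the tubulins TUBA1B, TUBB and TUBA1C rose by 1.24 to 1.29 on the log2 scale. Tubulin genes have close paralogs that can share reads. Ferritin heavy chain (FTH1), which has many processed pseudogenes, fell from 3839 ± 190 to 1630 ± 32.2 CPM, and aldose reductase (AKR1B1) from 756 ± 45.5 to 372 ± 26.8 CPM. IGFN1 fell from 1386 ± 320 to 612 ± 17.6 CPM. Glycolytic enzymes fell in 12 of 24 tested and rose in 5 (3 with upper-quartile scaling), with LDHA, lactate dehydrogenase, at 2982 ± 176 and 1651 ± 33.8 CPM, yet siFDPS was lower, at 1081 CPM, and against the other knockdowns 10 rose and 6 fell.

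Set against siFDPS and siSQLE, the 6 largest rises under siYY1 were in CCDC113, CYFIP2, GINS2, PIK3AP1, ZNF492 and KHK, with log2 fold changes of 2.65 to 3.54. CYFIP2, a regulator of actin nucleation, had 71.0 ± 1.10 CPM under siYY1, 38.3 ± 2.13 under siNC, 4.46 under siFDPS and 20.7 under siSQLE. KHK, fructokinase, had 17.7 ± 1.09 CPM, against 4.84 ± 0.585 under siNC and 1.99 and 3.88 in the other knockdowns. The largest falls were in TP53INP2, FAM49A, HIST1H2BC, IL24, GPNMB and PTGES. HIST1H2BC, a histone gene with near-identical copies, was at 0.435 ± 0.0476 CPM under siYY1, 3.79 ± 0.380 under siNC and 9.79 under siFDPS. GPNMB differed because of the other knockdowns alone, at 22.5 CPM under siFDPS and 4.31 under siSQLE, while siNC and siYY1 were at 0.754 and 0.926 CPM and did not pass the test (adjusted p = 0.37). TP53INP2 had 50.1, 0.693 and 0.733 CPM in the siNC libraries and 0.733, 0.615 and 0.256 under siYY1, so 2 siNC libraries were near the siYY1 level. It was not called against siNC (adjusted p = 0.055), and its means under siFDPS and siSQLE were 37.5 and 13.8 CPM.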

How the data were processed

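Stranded mRNA libraries with molecular identifiers of 8 bases were made from total RNA. The authors deposited raw counts per transcript for the 12 libraries. The submitters' processing notes name Trimmomatic 0.36, STAR 2.5.3, featureCounts of Subread 1.5.1 and GRCh38. How reads were divided between isoforms, and whether strand and identifiers were used, is not given in the sources used here, so counts were summed per gene (206601 transcripts, 58735 genes, 18305 without a count). Genes passing filterByExpr were fitted with edgeR 4.0.16 (quasi-likelihood, TMM, R 4.3.3), siYY1 against siNC over 6 libraries and siYY1 against the mean of siFDPS and siSQLE over 9, with Benjamini-Hochberg adjustment and a threshold of 0.05. The script was tested on simulated data in which few genes changed, as many up as down. Scaling under a broad change was not tested there. Libraries of a group differed beyond counting noise, and p-values measure only the spread between these cultures. Alternatives were DESeq2 1.42.0, other scalings and filters, thinning, a replicate block and leaving out libraries.

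The comparison, gene lists and tests were chosen with earlier results of these data known. Named genes are YY1, YY2 and ZFP42, the 10 largest rises and falls against siNC and 6 against the other knockdowns (protein-coding, 200 or more mean counts, groups apart, no exon shared on the same strand), the 6 with most counts among 2-fold changes, up to 3 per list and direction with the smallest p, and genes of the study. KEGG lists are the pathway names of the deposited table, limited to protein-coding genes. Some genes and lists are not reported here.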

Additional observations from a re-analysis of the deposited data

How the results depend on the processing

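The number of genes called in siYY1 against siNC (10010) ran from 8873 to 10148 over the alternatives that keep all libraries, with 9037 under a replicate block, and from 8716 to 9656 with 1 library left out. In the comparison with siFDPS and siSQLE (10068) the corresponding counts were 8996 to 10352 and 8714 to 10338, with 9514 under the replicate block. No gene was called in opposite directions by the main analysis and an alternative. Replicate numbers did not pair the libraries, since deviations from the group means of siNC and siYY1 libraries with the same number correlated at 0.02, 0.02 and -0.01. With the block the count of interferon-stimulated genes that fell was 28. Upper-quartile scaling moved the share of calls that rose from 49.3% to 38.8% against siNC and from 52.96% to 42.8% against the other knockdowns. Clustered protocadherins fell in 16 genes with a minimum of 50 counts on average, where fewer were tested. The share of genes with a motif that rose was 32.6% with CCATNTT and 37.8% with AANATGGCG in the 50 bases after the start. The log2 fold change of YY1 was -2.74 for its main transcript alone. Low counts limit precision, since the median standard error of the log2 fold change was 0.42 in the 3819 genes with fewest counts and 0.07 in the 3817 with most. The mitochondrial genes that fell numbered 12 with upper-quartile scaling, 5 with no filter and 5 under the replicate block, and they were not tested in the setting that leaves them out.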
